A study of Mus musculus with 4 samples.

Results

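Schwann cells are the glia of peripheral nerve, and 7 genes used to mark them, including those of them that do not make myelin, were followed here in the mouse diaphragm: S100b, Gfap, Cspg4, Ngfr, Cdh19, L1cam and Gap43. All probe sets whose platform annotation names 1 of these genes were taken. The platform names 18194 genes in all, and the 7 had 14 of the 45101 probe sets, from 1 for Cdh19 and for Gap43 to 3 for Ngfr and for Gfap, and no probe set annotated to several genes held 1 of them. Total RNA of the left hemi-diaphragm, the left part of the main muscle of breathing, had been hybridised from muscle with synapses (the synaptic region, 2 arrays) and from muscle without them (the non-synaptic region, 2 arrays). Nothing used here gives the strain, age or sex of the mice or the way the regions were cut. The arrays of a region are called replicate 1 and replicate 2 after the last number of their titles. The labels do not say whether separate animals were used, so every p-value below refers to array-to-array spread, which may be technical only.

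At the neuromuscular synapse the nerve terminal is capped by terminal, or perisynaptic, Schwann cells, which do not form myelin. Along the nerve, other non-myelinating Schwann cells ensheathe thin axons, while myelinating Schwann cells each wrap a single thick axon. Non-myelinating Schwann cells keep proteins that myelinating cells lose as they mature, among them the low-affinity neurotrophin receptor, the filament protein GFAP and the adhesion molecule L1. After nerve injury in the rat, terminal Schwann cells switch on GAP-43 and extend processes along which axons regrow. None of the 7 genes is exclusive to these cells. S100b is also made by myelinating Schwann cells and fat cells, Cspg4 by pericytes, and L1cam and Gap43 by neurons.

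The comparison asks whether transcripts of these markers are more or less abundant where the synapses lie. The brighter S100b probe set was 3.02-fold higher in the synaptic region, and the brightest of Cdh19 and Ngfr were 1.69-fold and 1.42-fold higher. Each of these had its synaptic arrays above the others without overlap, as did the brighter L1cam probe set at 1.19-fold. For L1cam the arrays of replicate 1 differed by only 0.03 on the log2 scale. Such separation was found for 9.77% of all probe sets with no filter and 9.89% of those tested. Both probe sets of Cspg4 and the 1 probe set of Gfap past the filter differed by less than 0.1 on the log2 scale, and Gap43 could not be ordered between the regions. By limma, a linear model with a shared estimate of the spread, 0 of the 6 marker probe sets tested passed at an adjusted p under 0.05, and 0 had an unadjusted p under 0.05. No probe set of S100b or Gap43 was among the 6, since all of them lay below the filter. The 3.02-fold difference of S100b was thus not tested in this fit. Over all 26480 probe sets tested, 0.00378% passed as higher and 0.00755% as lower in the synaptic region, and 0.653% and 0.332% had an unadjusted p under 0.05 in those directions. This fit did not use the replicate number, although same-numbered arrays deviated together (r = 0.63). With the replicate number as a block, limma called 56 probe sets higher and 18 lower. Again 0 of the 6 marker probe sets passed or had an unadjusted p under 0.05. The differences of the 7 genes were unequal, so they are given gene by gene.

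Intensities are the deposited values, on a linear scale in arbitrary units, and no probe set's level can be set against another's. A floor was set at 158.9, the 20th percentile over all arrays, and lower values were replaced by it before taking log2, and a probe set entered the test if its mean log2 value reached 8.87, the 40th percentile (an intensity of 468.5). Of the 14 marker probe sets, 6 passed this filter, covering 5 of the 7 genes, and 8 lay below it. The floor was reached on all 4 arrays by 3 probe sets, 2 of Ngfr and 1 of Gfap, and on at least 1 array by 7. S100b and Gap43 had no probe set past the filter, so these genes have levels but no call. The defining transcripts of muscle and synapse were present: the muscle creatine kinase gene Ckm had 173961 and 147214 in the synaptic arrays against 155700 and 162398 in the non-synaptic arrays, and the acetylcholine receptor gene Chrna1 had 9702 and 8633 against 2345 and 2343. Arrays of equal replicate number were more alike, at a median absolute log2 difference of 0.204 and 0.170, than the 2 arrays of the synaptic region (0.327) or of the non-synaptic region (0.283).

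**Figure D1:**
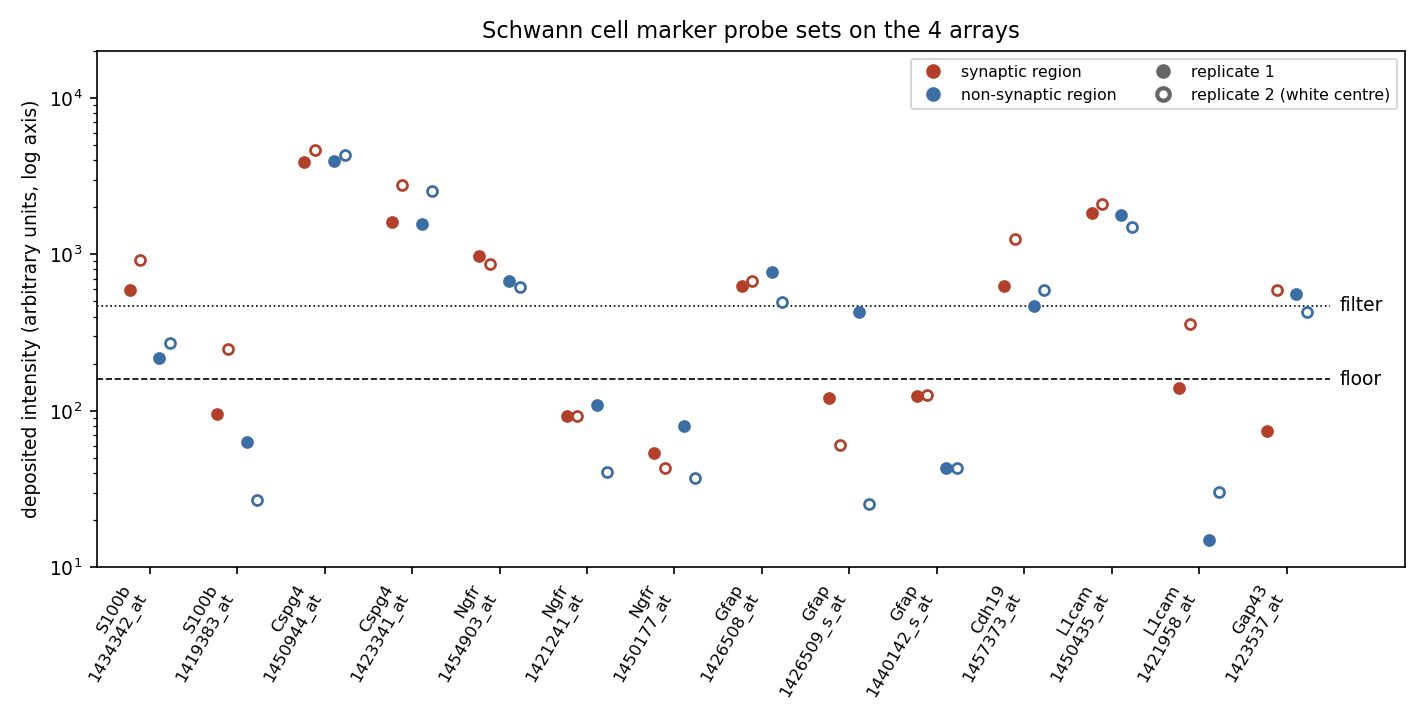
Deposited intensity (arbitrary units, log axis) of the 14 marker probe sets, with a point for each of the 2 synaptic and 2 non-synaptic arrays; points with a white centre are replicate 2. The dashed line is the floor of 158.9 and the dotted line the filter at 468.5; 3 probe sets lie under the floor on all 4 arrays, and the brighter S100b probe set has its synaptic points above and its non-synaptic points below the filter.

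Stretches of 250 bases before the transcription start are printed for S100b and Ngfr, whose synaptic arrays stood apart, and for Cspg4, which was far above the floor with regions that overlapped. They come from RefSeq on GRCm38.p6, which held promoters for 5 of the 7 genes, and are written 5′ to 3′ on the strand of the gene. Capitals mark matches, on either strand, to the N-box CCGGAA, the ETS-binding motif known from promoters of synaptic muscle genes, to the E-box CANNTG of myogenic factors, or to the SOX core ACAAAG or ACAATG, recognised by the Schwann cell factor SOX10. None of the marked matches overlap.
S100b, chr10:76253586-76253835, plus strand: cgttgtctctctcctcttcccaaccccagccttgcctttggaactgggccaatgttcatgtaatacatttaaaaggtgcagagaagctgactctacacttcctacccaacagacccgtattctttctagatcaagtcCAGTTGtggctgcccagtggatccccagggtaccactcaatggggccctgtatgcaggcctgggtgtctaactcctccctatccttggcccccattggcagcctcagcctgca
Ngfr, chr11:95587699-95587948, minus strand: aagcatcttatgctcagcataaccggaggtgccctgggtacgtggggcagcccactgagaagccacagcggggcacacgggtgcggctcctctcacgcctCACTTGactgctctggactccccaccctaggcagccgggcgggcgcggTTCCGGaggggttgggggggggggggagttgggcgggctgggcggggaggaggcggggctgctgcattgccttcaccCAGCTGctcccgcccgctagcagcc
Cspg4, chr9:56864854-56865103, plus strand: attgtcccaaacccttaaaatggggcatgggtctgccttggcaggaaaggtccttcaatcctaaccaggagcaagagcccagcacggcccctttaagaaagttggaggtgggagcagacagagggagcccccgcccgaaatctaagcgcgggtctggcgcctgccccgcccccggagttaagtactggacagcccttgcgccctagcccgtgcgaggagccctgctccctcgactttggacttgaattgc
S100b held 1 E-box, beginning 113 bases before the start. Ngfr held 1 N-box, beginning 102 bases before it and read as TTCCGG on the strand shown, and 2 E-boxes, beginning 150 and 25 bases before it. Cspg4 held none of the 3 motifs, and no SOX core was found in any of the 3 stretches. The promoter entries of L1cam, whose synaptic arrays also stood apart, are not printed. They held E-boxes but no N-box and no SOX core. Of 32851 promoters of that length in the RefSeq table, 12.0% held the N-box, 66.2% the E-box and 25.2% a SOX core. A match describes letters and not a bound site.

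S100b encodes a small calcium-binding protein of the cytoplasm that is the usual stain for Schwann cells. Its brighter probe set, 1434342_at, had intensities of 589 and 919 in the synaptic arrays, against 218 and 272 in the non-synaptic arrays. The regions did not overlap, with the synaptic arrays on top, as they did for 9.77% of all probe sets when no filter was set, and no array was at the floor. The log2 difference was 1.60, with 1.44 between the arrays of replicate 1 and 1.75 between those of replicate 2. The mean log2 value, 8.73, missed the filter by a narrow margin, so the probe set was tested only where an alternative let it in. With no filter the limma standard error was 0.35, the 95% interval ran from 0.44 to 2.76 and the unadjusted p was 0.0228. That fit includes probe sets at the floor on all 4 arrays, and it shares the spread little. The myelin gene Mbp had a standard error of 0.0848 there and 0.0855 from its own spread alone, against 0.170 in the main fit. The interval and p of S100b with no filter thus rest mostly on its own 4 values. Leaving out a non-synaptic array lifted the mean past the filter, as it gives more weight to the synaptic arrays, where the values are higher. The difference was 1.43 without non-synaptic replicate 1 and 1.76 without non-synaptic replicate 2. Without synaptic replicate 1 or synaptic replicate 2 the probe set stayed below the filter, with differences of 1.92 and 1.28. With a filter at the 30th percentile, chosen after its values were seen, the standard error was 0.45 and the interval ran from 0.47 to 2.72. The unadjusted limma p was 0.0140. The mean of the probe set is carried by the synaptic arrays, and both non-synaptic arrays were under the main filter of 468.5. An interval clear of 0 after that choice of filter is no support for a difference. In that fit 0.789% of the probe sets tested were higher in the synaptic region at an unadjusted p under 0.05. The lowest limma adjusted p of S100b with no filter or with the filter at the 30th percentile was 0.9999. A floor at the 40th percentile put both non-synaptic arrays on it, and the difference, then a lower bound, was 0.65. The second probe set, 1419383_at, had 95.4 and 247 in the synaptic arrays against 63.4 and 26.9 in the non-synaptic arrays. Only synaptic replicate 2 stood above the floor there, and with the other values set to the floor the fold was 1.25. That value rests on a single array and is not a bound, since synaptic replicate 1 was under the floor too.

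Because the array is bulk tissue, more cells of a type and more RNA per cell cannot be told apart. Of 18 genes listed as markers of myelinating Schwann cells, which also make S100b, 11 were measured. All 11 had a positive difference, against 47.7% of all probe sets tested. Their summed intensity was 115201 and 129898 in the synaptic arrays against 35988 and 37618 in the non-synaptic arrays, and 0 of the listed genes with a probe set were at the floor on every array. Such a sum is weighted to its brightest probe sets, here those of Pmp22 and Mbp. Mbp, for myelin basic protein, passed over all probe sets at 3.50 ± 0.17 on the log2 scale (SE, adjusted p = 0.0326 by limma). Its adjusted p was 0.333 without non-synaptic replicate 1 and 0.149 without non-synaptic replicate 2, with differences of 3.44 and 3.57. The median difference of the list was 1.37. Their part in the difference of S100b was not tested. Fat cells are another source of S100b. Their markers had a median of -1.50, with 0 of 7 measured genes above 0, against 47.7% of all probe sets tested. Their summed intensities were 135832 and 133226 in the synaptic arrays against 179834 and 190930 in the non-synaptic arrays. Most of that sum was Fabp4, with 111722 and 106280 in the synaptic arrays against 119239 and 118059 in the non-synaptic arrays, a difference of -0.12. The part of fat cells in the levels of S100b was not tested either. Of the other S100 proteins and their receptor, 9 of 11 were measured, with a median of -0.02, 3 above 0, and 0 called by limma or past an unadjusted p of 0.05. S100a4, a metastasis-associated calcium sensor of motile cells, had the smallest unadjusted p of them, with a difference of 0.51 ± 0.22 (SE, with 2 arrays in each region, adjusted p = 0.9999 by limma).

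Gfap encodes the glial filament protein that astrocytes and non-myelinating Schwann cells assemble. The probe set 1426508_at had 624 and 679 in the synaptic arrays, against 773 and 499 in the non-synaptic arrays. The non-synaptic arrays enclosed the synaptic ones, and the difference was 0.07 ± 0.36 (SE, limma adjusted p = 0.9999), with a 95% interval from -0.86 to 0.996. It was -0.31 between the arrays of replicate 1 and 0.44 between those of replicate 2, and without non-synaptic replicate 2 it was -0.25. A second probe set, 1426509_s_at, was at the floor on 3 arrays. Its values were 120 and 60.1 in the synaptic region against 426 and 25.4 in the non-synaptic region, so that only non-synaptic replicate 1 carried a signal. The last, 1440142_s_at, had 124 and 126 in the synaptic arrays against 43.4 and 43.1 in the non-synaptic arrays, all under the floor, where values have no order. Of 8 genes of related intermediate filaments 6 were measured, with a median of -0.08 and 2 above 0. Nes, for nestin, had 11239 and 9918 in the synaptic arrays against 4915 and 5188 in the non-synaptic arrays, a difference of 1.06 ± 0.18 (SE, unadjusted p = 0.00195, limma adjusted p = 0.9999).

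Cspg4 encodes NG2, a membrane chondroitin sulfate proteoglycan made by pericytes, and used with S100b to label terminal Schwann cells. Both of its probe sets passed the filter. The probe set 1450944_at had 3871 and 4613 in the synaptic arrays against 3953 and 4289 in the non-synaptic arrays, a difference of 0.04 ± 0.21 (SE) with a 95% interval from -0.49 to 0.56. The probe set 1423341_at had 1607 and 2771 in the synaptic arrays against 1565 and 2550 in the non-synaptic arrays. Here the arrays sorted by replicate number and not by region, and the difference of 0.08 ± 0.39 (SE, 95% interval -0.92 to 1.07) was far smaller than the gap of 0.79 between the 2 synaptic arrays. Within replicate numbers it was 0.04 and 0.12. The intervals allow a synaptic level from 0.712 to 1.48 times the non-synaptic level on the first probe set. On the second they allow from 0.530 to 2.10 times. Without synaptic replicate 2 or without non-synaptic replicate 1 the sign turned on both probe sets, to values from -0.02 to -0.31. Of 12 smooth muscle and pericyte markers 10 were measured, with a median of -0.10, 2 above 0 and summed intensities of 189178 and 194185 in the synaptic arrays against 189491 and 215317 in the non-synaptic arrays. The 6 measured genes for known NG2 ligands, among them Col6a2, for a collagen VI chain, and Pdgfa, for a platelet-derived growth factor, had a median of -0.02.

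Ngfr encodes the low-affinity neurotrophin receptor p75, which Schwann cells show before they myelinate, in the non-myelinating state and after injury. The probe set 1454903_at had 969 and 868 in the synaptic arrays, against 671 and 621 in the non-synaptic arrays. Both synaptic arrays lay above both others, as for 9.89% of all probe sets tested. The gaps within the regions, 0.16 and 0.11 on the log2 scale, were small beside the difference of 0.51 ± 0.29 (SE, 95% interval -0.23 to 1.24), whose standard error is set largely by the spread of other probe sets of like intensity. The unadjusted p was 0.137 and the limma adjusted p 0.9999. From the spread of this probe set alone, in the test with no moderation, the unadjusted p was 0.0351 and the adjusted p 0.9999. The difference was 0.53 in replicate 1 and 0.48 in replicate 2 and stayed between 0.43 and 0.59 with any array left out. It was larger than that of 96.7% of the probe sets tested. The other probe sets of Ngfr, 1421241_at and 1450177_at, had from 43.3 to 93.0 in the synaptic arrays and from 37.1 to 109 in the non-synaptic arrays, all under the floor, and they measure nothing of the comparison.

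Among neurotrophins and their receptors 7 of 11 genes were measured, 3 of them above 0, with a median of -0.01 and 0 called or past an unadjusted p of 0.05 by limma. Bdnf, for brain-derived neurotrophic factor, whose precursor is a ligand of p75, had 537 and 683 in the synaptic arrays against 1169 and 890 in the non-synaptic arrays. The synaptic arrays lay below both others, as for 9.98% of all probe sets tested, and the difference was -0.75 ± 0.32 (SE, unadjusted p = 0.0659, limma adjusted p = 0.9999). Bex3, for a p75-associated protein, differed by 0.38 ± 0.22 (SE) and Sort1, for sortilin, a partner of p75 in binding neurotrophin precursors, by -0.01 ± 0.24 (SE). Genes whose 4 array values, less their mean, lay nearest to those of Ngfr among 12362 other genes were Anapc15, Hbegf, Nmur2 and Cd209f, at Euclidean distances from 0.0512 to 0.0721 on the log2 scale.

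Cdh19 encodes a type II cadherin of neural crest and Schwann cell precursors. Its single probe set, 1457373_at, had 627 and 1260 in the synaptic arrays, against 470 and 591 in the non-synaptic arrays. Both synaptic arrays lay above both others, but synaptic replicate 1 was closer to the non-synaptic arrays than to synaptic replicate 2. The difference was 0.75 ± 0.44 (SE, 95% interval -0.37 to 1.88, unadjusted p = 0.148, limma adjusted p = 0.9999), larger than that of 98.8% of the probe sets tested. Synaptic replicate 2 set much of its size: the difference was 0.41 in replicate 1 and 1.09 in replicate 2, 0.25 without synaptic replicate 2 and 1.26 without synaptic replicate 1. Of 9 other cadherin genes 7 were measured, with differences from -0.17 to 0.14 and a median of 0.06. The genes nearest to Cdh19 in pattern were Kcna4, Wdpcp, Flvcr2 and Pam, at distances from 0.224 to 0.251.

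L1cam encodes a cell adhesion molecule of axons and non-myelinating Schwann cells that binds itself on neighbouring membranes. The probe set 1450435_at had 1828 and 2090 in the synaptic arrays, against 1785 and 1503 in the non-synaptic arrays. Both synaptic arrays lay above both others, by a small margin in replicate 1, where the difference was 0.03, against 0.48 in replicate 2. The difference was 0.25 ± 0.24 (SE, 95% interval -0.35 to 0.86, limma adjusted p = 0.9999), from 0.13 to 0.38 with an array left out. The second probe set, 1421958_at, had 139 and 361 in the synaptic arrays against 14.9 and 30.1 in the non-synaptic arrays. Only synaptic replicate 2 stood above the floor, and with the other values set to the floor the fold was 1.51. That value rests on a single array and is not a bound, since synaptic replicate 1 was under the floor too. With no floor the same values gave 3.40 on the log2 scale. All 7 genes of the L1 family and its partners were measured, 6 of them above 0, with a median of 0.36 that was -0.24 without synaptic replicate 1 and 0.00 without non-synaptic replicate 2. Nrcam, for an L1-related molecule of the node of Ranvier, had 689 and 751 in the synaptic arrays against 312 and 354 in the non-synaptic arrays, a difference of 1.11 ± 0.35 (SE, unadjusted p = 0.0228, limma adjusted p = 0.9999).

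Gap43 encodes a membrane protein of growth cones, present in neurons and in Schwann cells without myelin. Its single probe set, 1423537_at, had 74.8 and 590 in the synaptic arrays, against 560 and 430 in the non-synaptic arrays. Synaptic replicate 1 was under the floor and synaptic replicate 2 was the highest of the 4, so the synaptic arrays enclosed the non-synaptic ones. The mean log2 value of 8.60 was below the filter. The difference was -0.68 over both replicates, -1.82 in replicate 1 and 0.46 in replicate 2, and it was 0.27 without synaptic replicate 1. With a filter at the 30th percentile the 95% interval ran from -2.48 to 1.12 (limma adjusted p = 0.9999). Axon and neuron markers, which bear on L1cam and Gap43, were mostly weak. Of 16 such genes 4 were measured, with a median of -0.02, and 12 lay below the filter. The 5 measured genes of growth-cone membrane proteins related to GAP-43, such as Marcks, had a median of 0.10.

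**Figure D2:**
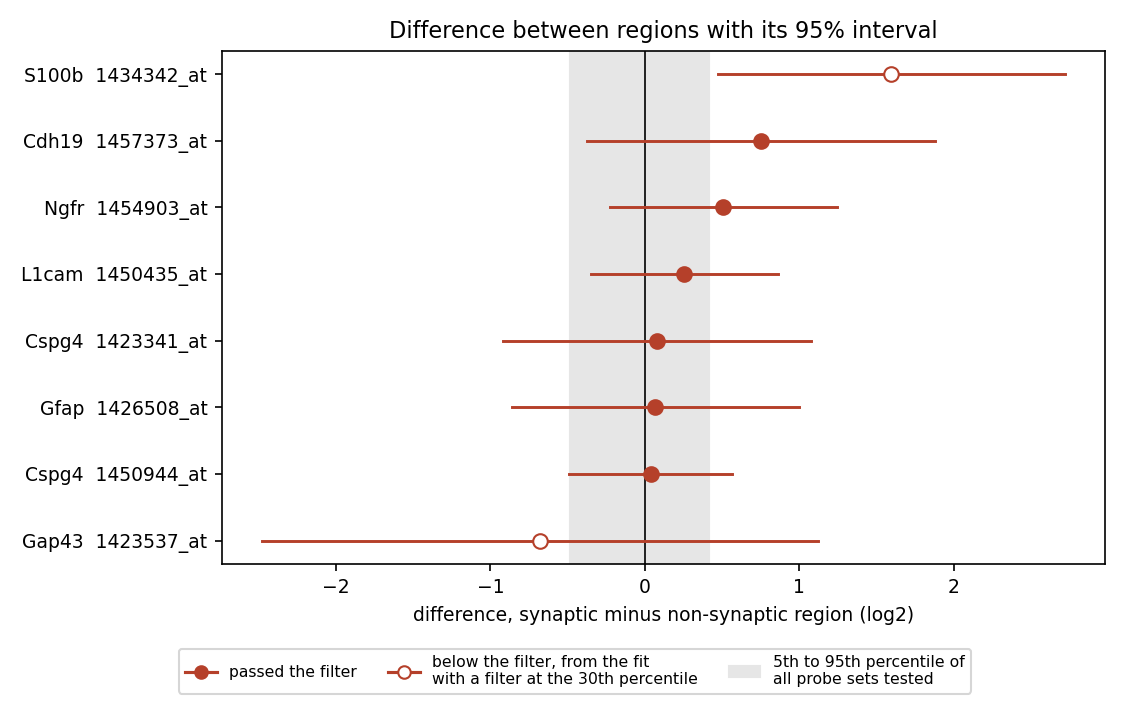
Log2 difference, synaptic minus non-synaptic region, with its 95% interval from limma for the 6 marker probe sets past the filter (filled) and for the S100b and Gap43 probe sets just below it (open, fitted with a filter at the 30th percentile). The grey band holds the 5th to 95th percentile of all probe sets tested in the main fit, from -0.49 to 0.41. The intervals of all but S100b cross 0. The filter at the 30th percentile was chosen after the S100b values were seen, and the mean of S100b is carried by its synaptic arrays. Its interval clear of 0 is therefore no support for a difference, and the limma adjusted p of S100b there was 0.9999.

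Across the 6 probe sets past the filter all 6 differences were above 0, against 47.7% of all probe sets tested, and their median was 0.17, against -0.01. For 3 of them, those of Ngfr, Cdh19 and L1cam, the regions did not overlap, with the synaptic arrays on top, against 9.89% of all probe sets tested. These counts are descriptions of a list chosen with results of these arrays known, and the sign of the Cspg4 and Gfap probe sets turned when single arrays were left out. Other genes of non-myelinating, terminal and immature Schwann cells gave 14 measured of 18. Of these 11 were above 0 and 9 had both synaptic arrays above both others, with a median of 0.46 and 0 called by limma. At an unadjusted limma p under 0.05, 2 were higher in the synaptic region, as were 0.653% of all probe sets tested. The 2 genes were Foxd3, for a neural crest transcription factor, at 1.10 ± 0.35 (SE, unadjusted p = 0.0243), and Erbb3, for the neuregulin receptor of Schwann cells, at 0.63 ± 0.23 (SE, unadjusted p = 0.0400). Apod, for apolipoprotein D, the brightest of the list, differed by 1.26 ± 0.67 (SE), with 14136 and 6381 in the synaptic arrays against 7250 and 2180 in the non-synaptic arrays. The myelinating list had a median of 1.37. The difference between these lists was not tested.

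**Figure D3:**
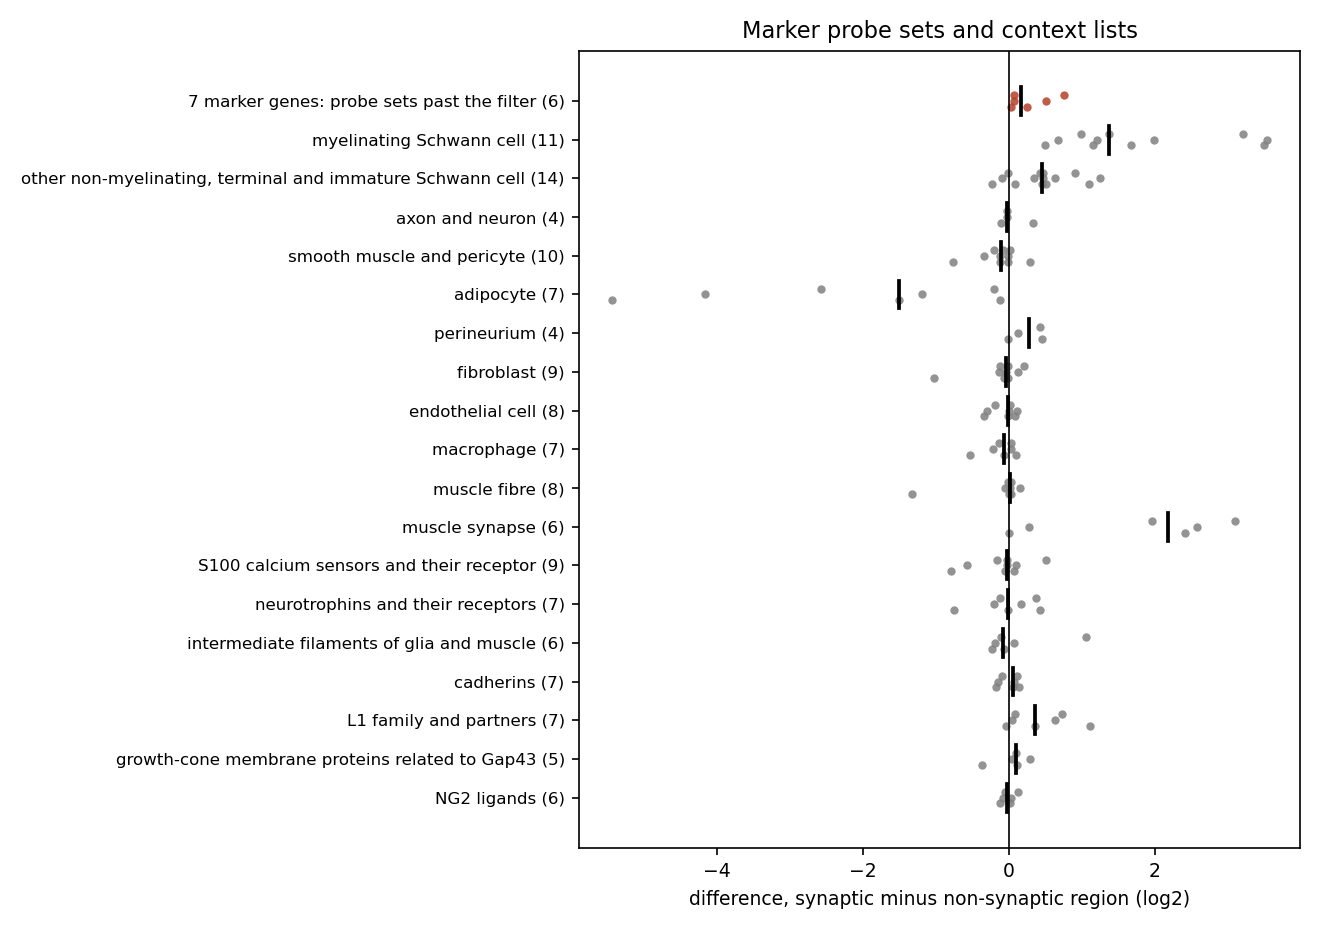
Log2 difference, synaptic minus non-synaptic region, of the 6 marker probe sets past the filter (top row) and of the measured genes of 18 other lists, with 1 point per probe set or gene, the number of points in brackets and the median as a bar. The markers lie from 0.04 to 0.75, the myelinating Schwann cell genes from 0.50 to 3.54 and the adipocyte genes from -5.43 to -0.12.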

How the data were processed

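Mouse left hemi-diaphragm RNA was hybridised to 4 one-colour arrays, grouped by region from their titles. The authors deposited a linear intensity for each probe set, and how they scanned, summarised and scaled the arrays is not stated in the sources used here. Their 2% trimmed mean was 2500 on each of the 4 arrays, and this scaling was kept, so a shift of most transcripts together would be hidden. Floor and filter are described with the results. The share of probe sets at the floor ran from 18.7% to 21.3% by array, and precision is limited by the 4 arrays.

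The 64 control probe sets were left out and 26480 probe sets were tested with limma 3.58.1 in R 4.3.3 (lmFit, eBayes with an intensity trend, 2-sided, Benjamini-Hochberg over all tested, threshold 0.05, with 2 residual and 3.16 prior degrees of freedom). With 2 arrays against 2, the smallest exact permutation p is 0.333, so no such test was run. The fit was also run on simulated arrays with known changes, drawn independently of one another and fitted with no floor or filter. Deviations shared by replicate number were not simulated, so that run does not cover them. Genes came from the platform annotation, which can be old, with symbols updated through GRCm38.p6 RefSeq tables for 34754 of the 34958 probe sets with 1 gene. A listed gene was read from its probe set with the highest mean. A list gene with no such probe set was not analysed here.

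The members and the 18 lists were chosen with earlier results of these data known. All member probe sets are named. Of each list the 2 genes with the smallest unadjusted p and the 1 with the highest mean could be named, and for the 2 member genes with the smallest p the 4 nearest genes. Alternatives covered normalization, filter, floor, variance prior, moderation, the replicate number as a block and each array left out.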

Additional observations from a re-analysis of the deposited data

How the results depend on the processing

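In all 15 alternatives 0 marker probe sets passed, and the lowest adjusted p of any was 0.809, for Cdh19 with the replicate number as a block. Over all probe sets, 1 was called higher and 2 lower in the synaptic region. The higher count became 6 with median centring, 3 with the filter at the 60th or the 30th percentile, and 0 with no filter, no intensity trend or no moderation. The lower count became 1 with the floor at the 40th percentile and 0 with no filter, no intensity trend or no moderation. With 1 array left out the higher count lay between 0 and 6 and the lower count between 0 and 5. The cause was not tested. The replicate block gave 56 higher and 18 lower. Same-numbered arrays deviated together from their region means (r = 0.63 across 26480 probe sets), but the labels state no pairing and there are only 2 pairs. The sign turned for Cspg4 without synaptic replicate 2 (-0.089 on 1450944_at and -0.31 on 1423341_at) and without non-synaptic replicate 1 (-0.02 and -0.27), and for Gfap 1426508_at without non-synaptic replicate 2. With each array left out in turn the ranges were -0.089 to 0.16, -0.31 to 0.47 and -0.25 to 0.38 for these 3 probe sets. S100b 1434342_at ranged from 1.28 to 1.92 with an array left out. Low signal limits 8 of the 14 marker probe sets, which lay below the filter, and 7 were at the floor on at least 1 array. The filter at the 30th percentile was chosen after seeing the data.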
